A study of Mus musculus with 24 samples.

Results

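The genotype difference at the pregnancy stage coded dp12 was measured on 6 of the 24 single-colour expression arrays of the series, 3 from mutants (M-dp12) and 3 from wild types (Wt-dp12). The arrays were chosen by their titles and the stage given in the labels, and were fitted on their own. The mutant titles carry the code Br-M, and the series is about BRCA1. The labels give neither the allele, nor a promoter or Cre driver, nor the tissue, so it is not known here in which cells the gene was altered. Both groups share 1 mixed background, 80% FVB, 10% 129SVEV and 10% Black Swiss, and no age or treatment of the animals is stated. Body weights in the titles were 47, 39 and 29 g for the M-dp12 animals and 38, 42 and 34 g for the Wt-dp12 animals. The labels list dp12 as a stage of pregnancy, and the design text counts the stages in months, which no mouse pregnancy lasts, so the code is used here only as a name. The labels name total RNA, while their treatment text describes RNA pulled down with a tagged PAB-1 protein, and this is not settled here. The other stages, V, dp18 and Lac10, hold 3 arrays of each genotype and serve only for comparison.

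BRCA1 is a tumour suppressor that works in homologous recombination repair of DNA breaks, at stalled replication forks and in cell cycle checkpoints, in complexes with BARD1, PALB2 and BRCA2. In the mammary gland of the mouse, mid-pregnancy is a phase of fast epithelial growth driven by progesterone and prolactin, in which alveoli fill the fat pad and milk protein and lipid genes begin to be expressed. The stroma around the ducts and alveoli, built by fibroblasts, is remodelled at the same time.

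All values are log2 expression values from RMA, a procedure that sets arrays to 1 common intensity distribution, so a difference of 1 is a doubling of signal. Of 22180 genes with a probe set of 1 symbol, 15234 were tested after a filter on low values. Correlations over these genes ran from 0.983 to 0.986 between mutant arrays, from 0.979 to 0.983 between wild-type arrays, and from 0.966 to 0.984 across genotypes. The first principal component of the 6 arrays held 39.96% of the variance and placed the mutants at 14.5, 18.4 and 7.43 and the wild types at -12.0, -0.90 and -27.4. Wt-dp12 replicate 3 thus lay farthest out and Wt-dp12 replicate 2 nearest to the mutants. All 22 luminal epithelial markers were tested, and their mean level per array was 9.51 to 9.60 in mutants and 9.52 to 9.64 in wild types, far above the array medians of 5.31 to 5.34. Milk protein genes were also well expressed, with Csn2, the beta-casein gene, at 12.87 to 12.94 in mutants and 12.54 to 12.83 in wild types. The titles give each of the 6 arrays its own number and body weight, so the replicates are read as separate animals, and their small number limits the precision. In such bulk RNA, fewer cells of a type and less RNA per cell cannot be told apart.

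Brca1, the gene named by the series, was at 6.39, 6.48 and 6.79 in the mutant arrays and at 6.43, 5.74 and 6.13 in the wild-type arrays. The lowest mutant array lay below the highest wild-type array, so the groups overlapped. The difference of 0.45 (SE 0.18) did not pass (limma, adjusted p = 0.389). A probe set can lie outside the altered part of a gene, so this level checks nothing about the genotype labels.

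At an adjusted p of 0.05 (limma, Benjamini-Hochberg over all 15234 genes), 6 genes differed between the genotypes at dp12, which is 0.0394% of those tested. Of these, 2 were higher in mutants (0.0131%), the agouti gene a and Gnpda1, and 4 were lower (0.0263%), 1600014C10Rik, Ctse, Ptprv and Clic6. In all 6 the mutant and wild-type arrays did not overlap. At an unadjusted p of 0.05, 641 genes were higher (4.21%) and 1125 lower (7.38%). This split turned with the scaling: it was 774 higher and 936 lower with arrays centred on their median, and 651 higher and 531 lower when centred on the housekeeping list. Counting differences of any size, 49.1% of all genes were higher and 50.9% lower, and their median difference was -0.003. Groups stood apart without overlap in 6.69% of all genes with the mutants higher and in 10.2% with the mutants lower.

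The agouti gene a encodes a secreted antagonist of melanocortin receptors that is best known for setting coat colour in mice. Its level was 8.83, 8.79 and 8.74 in mutants, against 4.77, 4.94 and 4.80 in wild types. The 3 arrays of each genotype lay close together, with a wide gap between the genotypes. It rose by 3.95 (SE 0.10, limma adjusted p = 5.07e-07), a 15.5-fold difference. At the other stages, 7 of 9 mutant arrays and 1 of 9 wild-type arrays lay above the midpoint of 6.84. Against their labels, the array labelled M-dp18 replicate 2 was at 4.96 and the array labelled Wt-Lac10 replicate 1 at 9.18, while M-Lac10 replicate 2 was between, at 6.54. Some titles outside dp12 end in a colour word. The 3 arrays marked brown, all wild type, were at 4.95 to 5.16, the 6 marked white spanned 4.76 to 9.18 over both genotypes, and the 1 marked golden was the M-Lac10 array at 6.54. The dp12 titles carry no such word, and its part in the dp12 difference was not tested.

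Gnpda1 encodes an enzyme that turns glucosamine-6-phosphate into fructose-6-phosphate. Mutant arrays were at 6.90, 7.18 and 6.94 and wild-type arrays at 5.75, 6.04 and 6.06, a rise of 1.06 (SE 0.13, limma adjusted p = 0.0484). Among the genes that fell, 1600014C10Rik was at 6.31, 6.52 and 6.38 in mutants, against 7.91, 7.75 and 8.02 in wild types. It fell by 1.49 (SE 0.11, limma adjusted p = 0.00359). Ctse, the gene of the aspartic protease cathepsin E, had levels of 5.76, 5.20 and 5.14 in mutants and 7.51, 7.34 and 6.87 in wild types. This was the largest of the 4 falls, -1.87 (SE 0.21, limma adjusted p = 0.0484).

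Ptprv encodes a receptor-type tyrosine phosphatase. Its mutant values of 5.27, 5.60 and 5.36 and wild-type values of 6.32, 6.56 and 6.42 gave a fall of -1.03 (SE 0.12, limma adjusted p = 0.0484). Clic6, of the intracellular chloride channel family, was at 5.06, 5.16 and 5.16 in mutants and 6.00, 6.10 and 5.87 in wild types, a fall of -0.86 (SE 0.10, limma adjusted p = 0.0484). These levels are close to the array medians. The differences of a and 1600014C10Rik passed in 16 of 17 alternative settings, that of Ctse in 12, and those of Gnpda1, Ptprv and Clic6 in 9 each. The count of 6 became 3 without M-dp12 replicate 2, 3 without M-dp12 replicate 3 and 57 without Wt-dp12 replicate 2, and it was 0 when the spread was estimated from all 24 arrays.

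**Figure D1:**
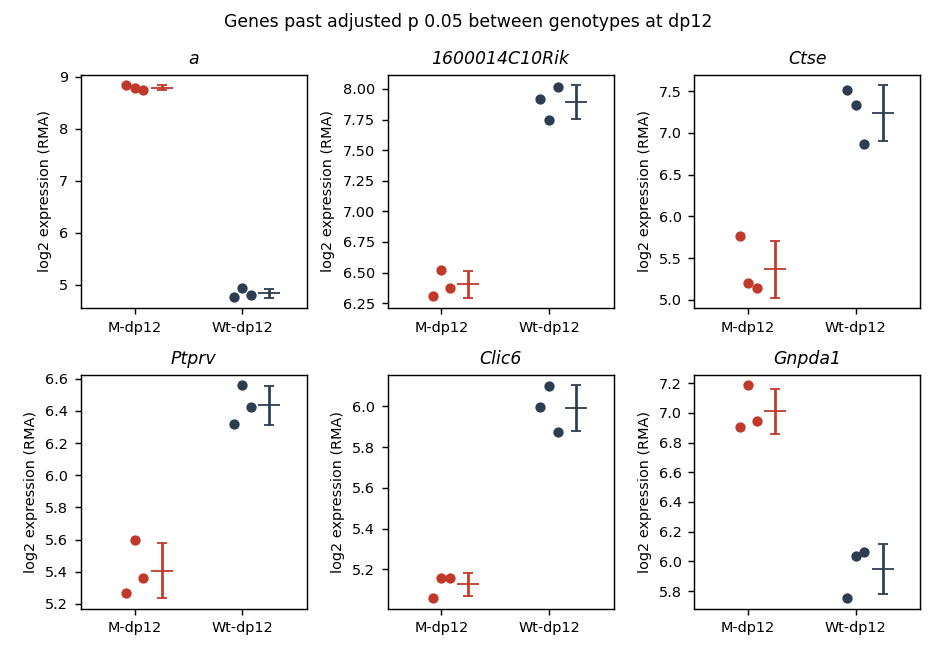
Log2 expression of the 6 genes past adjusted p 0.05, with 1 point per array for M-dp12 (left in each panel) and Wt-dp12 (right), and the mean with SD beside the points. Each panel has its own vertical scale, and in none do the groups overlap; the gene a shows the widest gap, near 8.79 in mutants and near 4.84 in wild types.

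The genes that came next in order of p missed the threshold. Among the higher ones were Ulbp1, which encodes a stress-induced ligand of the activating receptor NKG2D of natural killer cells, and Edar, the receptor gene of ectodysplasin. Ulbp1 was at 7.04, 7.05 and 7.16 in mutants, against 5.86, 5.53 and 6.24 in wild types (difference 1.20, SE 0.17, limma adjusted p = 0.0667). Edar was at 6.33, 6.41 and 6.60 in mutants, against 5.69, 5.87 and 5.53 in wild types (0.75, limma adjusted p = 0.111). Dusp4, a phosphatase of MAP kinases, averaged 9.16 ± 0.18 in mutants and 7.93 ± 0.46 in wild types (SD, n = 3 each; 1.23, limma adjusted p = 0.112). Ech1, an enzyme of fatty acid oxidation, averaged 9.06 ± 0.16 in mutants and 8.40 ± 0.09 in wild types (0.66, limma adjusted p = 0.112). The others of the 15 were Gm10499, Nat8f2, Apol6, Gm13546, Gm17250, Gm2808, Gpa33, Cntn4 and Rabggtb, with differences of 0.60 to 1.09. For Gm10499 another probe set had the opposite sign.

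The lower genes that came next did not pass either. Fndc1, with fibronectin type III domains, was at 6.05, 5.72 and 6.45 in mutants and 7.25, 7.43 and 7.43 in wild types (difference -1.30, SE 0.17, limma adjusted p = 0.0667). Efemp1, a fibulin of elastic tissue, was at 8.17, 8.11 and 8.22 in mutants and 8.94, 9.28 and 9.56 in wild types (-1.09, limma adjusted p = 0.0667). Kera, the small proteoglycan keratocan, differed by -1.22 and Sfrp2, a secreted modulator of Wnt signalling, by -0.94 (limma adjusted p = 0.0882 and 0.101). In each of these genes every mutant array lay below every wild-type array. Dhrs9, a retinol and steroid dehydrogenase, averaged 5.01 ± 0.51 in mutants and 6.64 ± 0.15 in wild types, and Akr1c18, which inactivates progesterone, 4.56 ± 0.32 in mutants and 5.59 ± 0.13 in wild types (SD, n = 3 each). Their differences were -1.63 and -1.03 (limma adjusted p = 0.0667 and 0.101). Ifi202b, an interferon-inducible gene, differed by -1.78 (limma adjusted p = 0.0847), and Olfml1, B4galt6, Ppic and Flrt2 by -0.91 to -0.78.

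Some of the largest differences rested on unequal wild-type arrays. BC018473 was at 3.99, 4.00 and 3.90 in mutants, against 11.21, 4.07 and 10.89 in wild types, so Wt-dp12 replicate 2 stood at the mutant level. St6galnac2, a sialyltransferase gene, was at 7.45, 7.22 and 6.97 in mutants and 9.58, 7.59 and 9.17 in wild types. Cwc22, a splicing factor gene measured by 8 probe sets, was at 7.55, 7.83 and 7.84 in mutants and 9.72, 7.88 and 10.13 in wild types. The same wild-type array was the low one in all 3 genes, and their differences of -4.76, -1.57 and -1.50 did not pass (limma adjusted p = 0.315, 0.261 and 0.303). Among the higher genes, Ucp3, a mitochondrial carrier of muscle and fat, was at 8.59, 8.50 and 8.03 in mutants and 5.66, 7.88 and 6.04 in wild types (1.84, limma adjusted p = 0.239). Pglyrp1, a secreted protein that binds bacterial peptidoglycan, was at 10.56, 10.08 and 9.34 in mutants and 7.87, 8.21 and 8.87 in wild types (1.68, limma adjusted p = 0.126). Gm10573 and Gdpd3 were higher by 1.85 and 1.67, with wild-type values spread over 8.64 to 10.33 and 5.41 to 7.71.

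Over 34 gene lists, the fibroblast and stromal matrix list had the lowest median difference. All 20 of its 20 tested genes, of 21 listed, were lower in mutants, with a median of -0.69, against -0.003 over all genes tested. None passed the adjusted threshold (smallest limma adjusted p = 0.116). At an unadjusted p of 0.05, 17 were lower and 0 higher, where 7.38% and 4.21% of all genes were. In 14 the groups did not overlap with the mutants lower, as in 10.2% of all genes. The median ran from -0.85 without M-dp12 replicate 3 to -0.53 without Wt-dp12 replicate 3.

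Fn1, the gene of fibronectin, a glycoprotein that links cells to collagen, was at 9.69, 9.82 and 10.34 in mutants and 11.00, 10.83 and 11.44 in wild types. Its difference of -1.14 (SE 0.20) had a limma adjusted p of 0.116. Dpt, the gene of dermatopontin of the collagen network, was at 9.67, 9.56 and 10.07 in mutants and 10.48, 10.59 and 10.50 in wild types (-0.76, SE 0.14, limma adjusted p = 0.12). In both, the highest mutant array stayed below the lowest wild-type array. Col1a1, a chain of the main fibrillar collagen, was at 9.39, 9.59 and 9.97 in mutants and 10.28, 10.11 and 10.72 in wild types (-0.72, limma adjusted p = 0.244). Thy1 and Col5a2 differed by -0.75 and -0.87, Lum, the collagen-binding proteoglycan lumican, by -0.93, and the fibroblast receptor gene Pdgfra by -0.73. The smallest differences were those of Sparc and Postn, at -0.28 and -0.25, in which the groups overlapped. Averaged over the list, M-dp12 replicate 3 was the highest mutant array and Wt-dp12 replicate 3 the highest wild-type array, with means of 8.35, 8.33 and 8.88 in mutants and 9.01, 9.08 and 9.47 in wild types. The medians of the same list between genotypes were -0.27 at V, 0.09 at dp18 and -0.10 at Lac10. Without the array labelled M-dp18 replicate 2 the dp18 median was -0.15, and without the array labelled Wt-Lac10 replicate 1 the Lac10 median was -0.12.

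**Figure D2:**
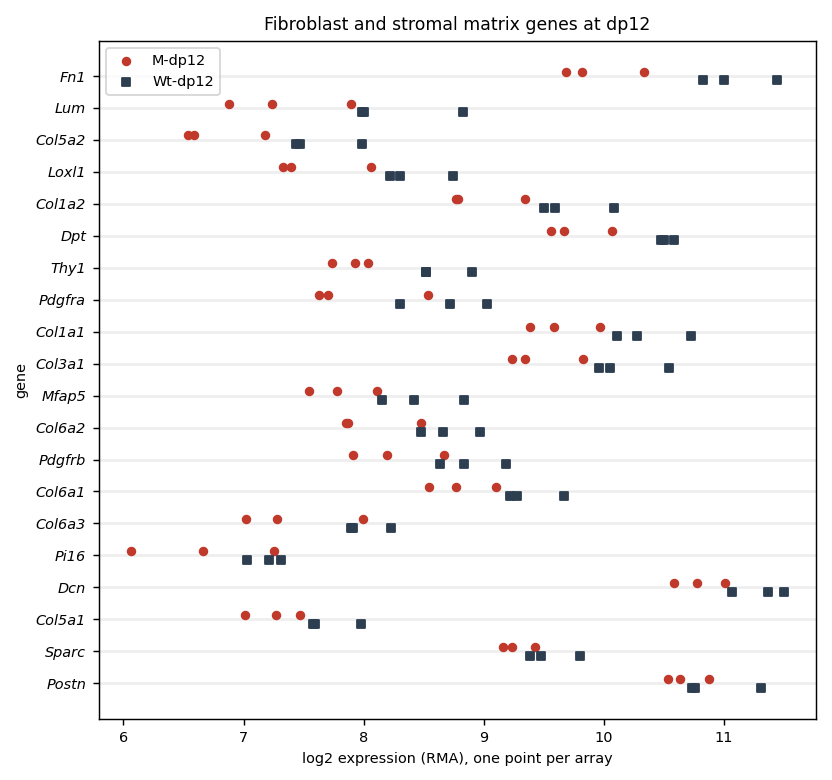
Log2 expression of the 20 fibroblast and stromal matrix genes tested at dp12, with 1 point per array (red circles above for M-dp12, dark squares below for Wt-dp12), ordered by the difference. All mutant points lie left of all wild-type points in 14 genes, with the widest shift for Fn1 (-1.14).

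Marker genes of other cell types were set beside these. Luminal epithelial markers had a median difference of 0.01 (11 of 22 higher), basal and myoepithelial markers of 0.05 (10 of 16 higher), white adipocyte markers of 0.04 (10 of 16 higher) and macrophage and neutrophil markers of -0.002 (10 of 20 higher). Endothelial markers were lower in 17 of 19 genes, with a median of -0.22, which was -0.10 without Wt-dp12 replicate 3 and -0.33 without Wt-dp12 replicate 1. At an unadjusted p of 0.05, where 7.38% of all genes were lower and 4.21% higher, 5 endothelial genes were lower, among them Tek, the angiopoietin receptor gene, at -0.53 and Emcn, an endothelial sialomucin, at -0.71, and 1, Apln, was higher. Summed on the linear scale, the stromal list ran from 9370 to 13022 in mutants and from 14680 to 20027 in wild types, which do not overlap. The endothelial sums, 4553 to 5655 in mutants and 5191 to 7413 in wild types, did overlap. The part of cell composition in the stromal differences was not tested.

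Apln encodes apelin, a peptide that acts on the receptor encoded by Aplnr in blood vessels. Apln was at 9.20, 8.78 and 8.41 in mutants and 7.29, 7.91 and 5.93 in wild types, while Aplnr was at 7.85, 7.95 and 8.11 in mutants and 8.25, 8.66 and 8.69 in wild types. The ligand was thus higher and the receptor lower in mutants, with no overlap in either, at differences of 1.75 and -0.56 (limma adjusted p = 0.229 and 0.233).

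Of the T and B lymphocyte markers, 15 of 21 were higher in mutants, with a median of 0.20. Of these 5 were higher and 0 lower at an unadjusted p of 0.05, where 4.21% and 7.38% of all genes were. The CD8 co-receptor genes led. Cd8b1 was at 6.85, 6.04 and 6.33 in mutants and 4.99, 5.26 and 5.62 in wild types (1.12, SE 0.22, limma adjusted p = 0.132), and Cd8a differed by 0.98 (limma adjusted p = 0.161). Cd3e, a chain of the T cell receptor complex, also differed by 0.98, with overlapping groups, and Cd5 by 0.46. The B cell genes Cd79a, Cd79b and Ms4a1 were at -0.13, -0.39 and -0.25. In each, the groups overlapped and Wt-dp12 replicate 3 was the highest array. The B cell genes Cd22 and Blk leaned the other way, also with overlap. Cd22 was at 5.50, 5.12 and 5.23 in mutants and 4.79, 5.19 and 5.39 in wild types. Blk was at 5.03, 5.28 and 4.89 in mutants and 4.88, 4.86 and 5.20 in wild types. The list median was 0.07 without Wt-dp12 replicate 1, the array with the lowest mean level of the list, and 0.33 without Wt-dp12 replicate 3. Among the remaining marker lists, plasma cell, skeletal muscle, peripheral nerve, keratinocyte and brown adipocyte genes had medians of -0.15, -0.11, -0.08, -0.10 and 0.02, with at most 1 gene per list at an unadjusted p of 0.05: Des, the muscle intermediate filament gene desmin (-0.47), Pmp22 of myelin (-0.40) and Dio2 (-0.68). In the macrophage list 1 was, the mannose receptor gene Mrc1 (-0.63).

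**Figure D3:**
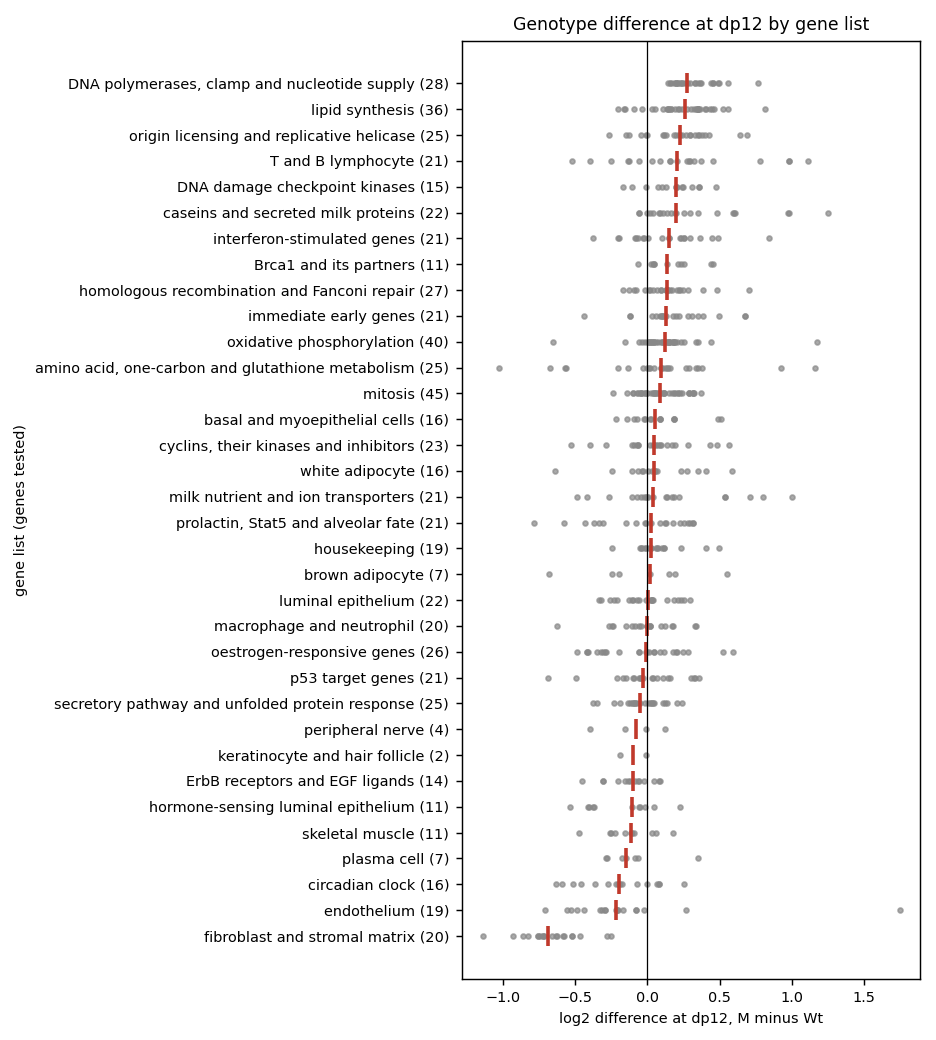
Log2 difference at dp12, M minus Wt, for each gene of 34 lists (grey points) and the list median (red bar), with the number of genes tested in brackets. The fibroblast and stromal matrix median is lowest at -0.69 and lies apart from the other medians, which run from -0.22 to 0.27.

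All 28 tested genes for DNA polymerases, the sliding clamp and nucleotide supply were higher, with a median of 0.27, and 9 were higher at an unadjusted p of 0.05, where 4.21% of all genes were. No gene of the list passed (smallest limma adjusted p = 0.285). Rrm2, a subunit of ribonucleotide reductase, was at 7.70, 7.91 and 7.90 in mutants and 7.56, 6.86 and 7.40 in wild types (0.56). Pcna, the sliding clamp of DNA polymerases, was at 8.48, 8.45 and 8.73 in mutants and 8.35, 8.02 and 8.20 in wild types (0.36), and Chaf1a, a histone chaperone at the fork, differed by 0.45. In these 3 genes the groups did not overlap. Origin licensing and helicase genes had a median of 0.23 (19 of 25 higher), led by Mcm6 at 0.64 and Gins1 at 0.69, with Mcm2 at 0.40 (limma adjusted p = 0.561) and Orc3 lower at -0.27. Both medians were smallest without Wt-dp12 replicate 2, at 0.16 and 0.10, the wild-type array with the lowest mean level of both lists.

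Homologous recombination and Fanconi genes had a median of 0.14 (22 of 27 higher), with 2 higher and 0 lower at an unadjusted p of 0.05, where 4.21% and 7.38% of all genes were. Xrcc3, a gene of recombination repair, was at 6.56, 7.03 and 6.78 in mutants and 6.56, 6.19 and 6.17 in wild types (0.48, limma adjusted p = 0.303), and Exo1, an exonuclease that resects breaks, differed by 0.70 (limma adjusted p = 0.316). Among Brca1 and its partners 10 of 11 were higher (median 0.14), with Topbp1 at 0.44, Brca2 at 0.25, Palb2 at 0.23 and Bard1 at 0.14. Checkpoint kinase genes had a median of 0.20. Without M-dp12 replicate 3 the medians of repair, Brca1 partner and checkpoint genes were 0.05, 0.03 and 0.08, and without M-dp12 replicate 1 they were 0.20, 0.29 and 0.30. The phosphatase gene Cdc25a was at 0.47 and Chek2 at 0.36, while Wee1, a kinase that restrains entry into mitosis, was at -0.17 (limma adjusted p = 0.654). Cyclin-related genes had a median of 0.05, which was -0.06 without M-dp12 replicate 3. E2f1, a transcription factor of the G1 to S transition, was higher by 0.43 and Ccne1, the cyclin E gene, by 0.48, and Cdkn1c, a cyclin-dependent kinase inhibitor, was lower by -0.40.

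Mitotic genes had a median of 0.09, with 31 of 45 higher. At an unadjusted p of 0.05 in limma 0 were higher and 0 lower, where 4.21% and 7.38% of all genes were. The median of the mitotic list was -0.09 without M-dp12 replicate 3. The mean level of the list in that array was the highest of the 6 arrays (7.96, with 7.26 and 7.59 in the other mutants and 7.63, 7.23 and 7.66 in wild types). Targets of p53 had a median of -0.03. Cdkn1a, the p21 inhibitor gene of that pathway, was at 8.96, 8.65 and 8.61 in mutants and 8.76, 8.66 and 8.93 in wild types (-0.05, limma adjusted p = 0.928). Sesn1 and Ddit4, both of which restrain mTOR signalling, were lower by -0.69 and -0.49 with no overlap between groups, and Aen, a nuclease gene, was higher by 0.36. These 2 of 21 p53 targets apart with the mutants lower make 9.52%, close to the 10.2% of all genes.

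Steroid receptor genes and some of their targets were lower in mutants without passing. Esr1, the oestrogen receptor gene, was at 6.44, 6.98 and 6.63 in mutants and 7.12, 7.19 and 6.85 in wild types (-0.37, limma adjusted p = 0.409). Pgr, the progesterone receptor gene, was at 5.43, 5.78 and 5.71 in mutants and 5.85, 5.77 and 6.53 in wild types (-0.41, limma adjusted p = 0.481). In both, M-dp12 replicate 2 lay within the wild-type range. Paracrine targets of progesterone in the hormone-sensing luminal cells were lower with no overlap: Wnt4 averaged 7.52 ± 0.20 in mutants and 8.05 ± 0.23 in wild types, and Tnfsf11, which encodes RANK ligand, 6.82 ± 0.26 in mutants and 7.19 ± 0.06 in wild types (SD, n = 3 each; -0.54 and -0.37, limma adjusted p = 0.261 and 0.359). For Tnfsf11 the groups almost touched, with the highest mutant array at 7.11 and the lowest wild-type array at 7.12. In the whole hormone-sensing list 9 of 11 were lower. In 2 of the 11 the groups stood apart with the mutants lower (18.2%), against 10.2% of all genes. Its median was -0.11, with -0.31 without Wt-dp12 replicate 2 and -0.06 without Wt-dp12 replicate 1.

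Oestrogen-responsive genes had a median of -0.01, with the stanniocalcin gene Stc2 (0.53) and Cyp1b1 (0.60) higher and the receptor cofactor gene Nrip1 (-0.49), Krt19 (-0.32), Igfbp4 (-0.42) and Cxcl12 (-0.35) lower, none of them passing (smallest limma adjusted p of the list 0.284).

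Prolactin signals through JAK2 and STAT5, and SOCS proteins act as its feedback inhibitors. The median of that list was 0.03, or -0.02 without Wt-dp12 replicate 3 and 0.09 without Wt-dp12 replicate 2. Of its 21 genes 2 were higher and 6 lower at an unadjusted p of 0.05, where 4.21% and 7.38% of all genes were. Kit, a receptor tyrosine kinase of luminal progenitors, was at 8.68, 8.86 and 8.91 in mutants and 9.28, 9.53 and 9.99 in wild types (-0.78, SE 0.17, limma adjusted p = 0.171). Socs2 was at 9.82, 10.00 and 10.13 in mutants and 10.29, 10.57 and 10.81 in wild types (-0.58, limma adjusted p = 0.233), whereas Socs1 was higher by 0.31 and the kinase gene Akt1 by 0.32. In all 4 the groups stood apart. The epithelial transcription factor gene Ehf was lower by -0.33. ErbB receptors bind growth factors of the EGF family, and 3 receptor genes were lower, Erbb3 by -0.45, Erbb4 by -0.31 and Egfr by -0.31, with 11 of 14 lower and a list median of -0.10, which was -0.21 without M-dp12 replicate 1 and -0.05 without Wt-dp12 replicate 1. Erbb2 differed by -0.13. The luminal genes Krt19 and Cdh1 were lower by -0.32 and -0.23, and the basal genes Actg2 and Krt14 higher by 0.51 and 0.49. Their whole lists were split, with 11 luminal genes higher and 11 lower, and 10 basal genes higher and 6 lower.

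Of 22 milk protein genes 19 were higher. The median was 0.20, with 0.09 without M-dp12 replicate 1 and 0.31 without M-dp12 replicate 3. In this list 2 were higher and 0 lower at an unadjusted p of 0.05, where 4.21% and 7.38% of all genes were. These were Csn1s2b, a casein gene (0.98), and Lpo, lactoperoxidase (0.59), with limma adjusted p = 0.301 and 0.41. The groups overlapped in both. Csn1s2b was at 6.05, 5.37 and 4.86 in mutants and 4.31, 4.96 and 4.06 in wild types. Its wild-type levels lay below the array medians of 5.31 to 5.34. Lpo was at 7.37, 7.39 and 6.64 in mutants and 6.65, 6.89 and 6.09 in wild types. Wap, the gene of whey acidic protein, was at 11.05, 10.01 and 8.98 in mutants and 8.45, 9.86 and 7.98 in wild types. The SD was 1.03 in mutants and 0.98 in wild types, and the difference of 1.25 did not pass (SE 0.57, limma adjusted p = 0.447).

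Of 36 lipid synthesis genes 31 were higher, and the median was 0.26. At an unadjusted p of 0.05, 10 were higher and 0 lower, where 4.21% and 7.38% of all genes were (smallest limma adjusted p = 0.222). Gpam, which starts glycerolipid synthesis, was at 8.05, 8.32 and 8.25 in mutants and 7.76, 7.82 and 7.47 in wild types (0.52, SE 0.13). Slc25a1, the mitochondrial citrate carrier that exports the carbon for fatty acids, differed by 0.40, Lss of cholesterol synthesis by 0.56, and Acaca, acetyl-CoA carboxylase, by 0.82. The groups stood apart for the first 3 and overlapped for Acaca. Fasn, fatty acid synthase, was at 11.85, 11.81 and 11.37 in mutants and 11.39, 11.85 and 10.40 in wild types, so a single wild-type array was low. The list median was 0.09 without that array, Wt-dp12 replicate 3, and 0.35 without Wt-dp12 replicate 2. Between genotypes at the other stages the median of the list was 0.25 at V, 0.08 at dp18 and -1.44 at Lac10. Leaving out the arrays whose level of the gene a went against their labels, it was 0.06 at dp18 and -1.80 at Lac10. Whether those 2 arrays carry the right label was not tested.

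Transporter genes for milk had a median of 0.04, which was -0.04 without Wt-dp12 replicate 3. Aqp3, a channel for water and glycerol, was at 8.28, 8.19 and 7.67 in mutants and 7.17, 6.82 and 7.15 in wild types (1.00, SE 0.18, limma adjusted p = 0.116). Slc5a5, the iodide transporter, was higher by 0.54 and Atp2b2, a calcium pump of the apical membrane, by 0.71. The chloride cotransporter gene Slc12a2 was lower by -0.49 and the retinol receptor gene Stra6 by -0.42. Secretory pathway genes had a median of -0.05, with Herpud1 and Dnajb9, both induced by the unfolded protein response, at -0.38 and -0.35 and Sdf2l1 at 0.24.

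Of 40 oxidative phosphorylation genes 35 were higher, by small amounts (median 0.12, and 0.07 without Wt-dp12 replicate 3). Cox6b1, a subunit of cytochrome oxidase, was at 9.58, 9.66 and 9.59 in mutants and 9.26, 9.24 and 9.01 in wild types (0.44, limma adjusted p = 0.21), and Atp5d, a subunit of ATP synthase, differed by -0.65 (limma adjusted p = 0.209). Cox7c (1.18), Atp5l (0.35) and Ndufs4 (0.33) were higher.

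The amino acid, one-carbon and glutathione list had a median of 0.10, which was 0.04 without Wt-dp12 replicate 2. Of its 25 genes 4 were higher and 3 lower at an unadjusted p of 0.05, where 4.21% and 7.38% of all genes were. Phgdh, the first enzyme of serine synthesis, was at 7.57, 7.31 and 7.59 in mutants and 7.25, 6.32 and 6.12 in wild types (0.93, limma adjusted p = 0.273). Gldc, of the glycine cleavage system, was higher by 1.17, with Psph and Gcsh at 0.35 and 0.27. Cdo1, cysteine dioxygenase, was at 6.09, 6.43 and 6.58 in mutants and 7.22, 7.25 and 7.72 in wild types (-1.03, SE 0.17, limma adjusted p = 0.111). Gclc, the catalytic subunit for glutathione synthesis, was at 8.40, 8.63 and 8.45 in mutants and 8.98, 9.02 and 9.17 in wild types (-0.56, SE 0.11, limma adjusted p = 0.126). Both of these lay apart without overlap, as did Aldh1l1 of folate metabolism (-0.67). These 3 of 25 genes make 12%, close to the 10.2% of all genes that stood apart with the mutants lower.

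Interferon-stimulated genes had a median of 0.15, with Bst2, which tethers viruses to the cell surface, at 7.14, 7.06 and 7.59 in mutants and 6.18, 6.77 and 6.30 in wild types (0.84, limma adjusted p = 0.171) and the RNA sensor gene Ifih1 higher by 0.37. The median was -0.01 without Wt-dp12 replicate 1. Immediate early genes respond to growth factors and to stress within minutes. Of 21 tested 18 were higher, with a median of 0.13, or 0.22 without Wt-dp12 replicate 2. In this list 5 were higher and 1 lower at an unadjusted p of 0.05, where 4.21% and 7.38% of all genes were. Fosb was at 11.51, 11.34 and 11.47 in mutants and 10.91, 11.10 and 10.29 in wild types (0.67, limma adjusted p = 0.274), and Fos, Ier2 and Atf3 were higher by 0.50, 0.67 and 0.39. Fosl2 was lower by -0.44. Housekeeping genes had a median of 0.03, with the transferrin receptor gene Tfrc and the lysosomal enzyme gene Gusb higher by 0.40 and 0.49. This control list leaned higher, with 13 of 19 genes higher in mutants. In 4 of the 19 the groups stood apart with the mutants higher (21.1%, against 6.69% of all genes). In 0 they stood apart with the mutants lower, against 10.2% of all genes.

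Of 16 circadian clock genes 12 were lower, and the median was -0.20, which ran from -0.23 to -0.16 with each array left out. In 6 genes all mutant arrays lay below all wild-type arrays, as in 10.2% of all genes, and in 0 above. The clock is a feedback loop in which CLOCK and BMAL1 drive genes through the E-box motif CACGTG, among them those of their own repressors. Nr1d1, the repressor REV-ERB alpha, was at 8.66, 8.63 and 8.58 in mutants and 9.15, 9.39 and 9.24 in wild types (-0.64, SE 0.10, limma adjusted p = 0.106). Its relative Nr1d2 was at 8.15, 8.40 and 8.40 in mutants and 8.85, 8.93 and 8.94 in wild types (-0.59, SE 0.11, limma adjusted p = 0.116). The transcription factor genes Bhlhe41, Dbp and Tef and the period gene Per1 were lower by -0.52, -0.46, -0.27 and -0.22. Arntl, which encodes BMAL1, differed by -0.01 and Clock by -0.19, both with overlapping groups. The labels give no hour of tissue collection.

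The promoters of the 6 clock genes were read from RefSeq (GRCm38.p6), and all 6 had an entry. The motif CACGTG, which reads the same on both strands, lay in the 250 bases before the start of Bhlhe41, Per1 and Tef, and not in those of Dbp, Nr1d1 and Nr1d2. It was in the same window of 6.02% of all 32851 promoters of the table. The windows that hold it are shown because these genes stood apart at dp12 in the same direction; capitals mark the motif. They lie at chr6:145865421-145865670 on the minus strand for Bhlhe41, chr11:69098699-69098948 on the plus strand for Per1 and chr15:81802423-81802672 on the plus strand for Tef.
Bhlhe41: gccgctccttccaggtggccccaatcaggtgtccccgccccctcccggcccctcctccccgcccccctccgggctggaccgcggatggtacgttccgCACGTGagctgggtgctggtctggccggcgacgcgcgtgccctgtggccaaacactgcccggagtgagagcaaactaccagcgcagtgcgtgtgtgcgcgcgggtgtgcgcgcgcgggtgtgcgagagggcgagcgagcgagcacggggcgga
Per1: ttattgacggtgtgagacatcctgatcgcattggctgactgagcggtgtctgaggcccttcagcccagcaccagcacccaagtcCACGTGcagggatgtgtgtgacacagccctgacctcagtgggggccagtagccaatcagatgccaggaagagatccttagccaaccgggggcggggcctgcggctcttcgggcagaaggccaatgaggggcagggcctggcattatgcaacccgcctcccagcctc
Tef: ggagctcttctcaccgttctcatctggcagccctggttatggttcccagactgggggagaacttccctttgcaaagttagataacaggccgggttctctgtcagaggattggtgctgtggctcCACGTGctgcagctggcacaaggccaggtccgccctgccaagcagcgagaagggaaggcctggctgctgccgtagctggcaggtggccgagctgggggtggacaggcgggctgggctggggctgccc

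The motif began 153, 166 and 127 bases before the start in Bhlhe41, Per1 and Tef. For Per1 1 of 2 promoters in the table held it, and for Tef both of 2 did. Of the other 9 clock genes tested that have a promoter entry, 2 held it. In levels, Bhlhe41 was at 8.53, 8.06 and 8.61 in mutants and 8.78, 9.06 and 8.92 in wild types, Per1 at 10.17, 10.22 and 10.39 in mutants and 10.43, 10.55 and 10.47 in wild types. Tef was at 5.23, 5.32 and 5.25 in mutants and 5.71, 5.55 and 5.36 in wild types. For Per1 and Tef the nearest arrays of the genotypes almost touched, and neither difference passed (limma adjusted p = 0.461 and 0.407).

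**Figure D4:**
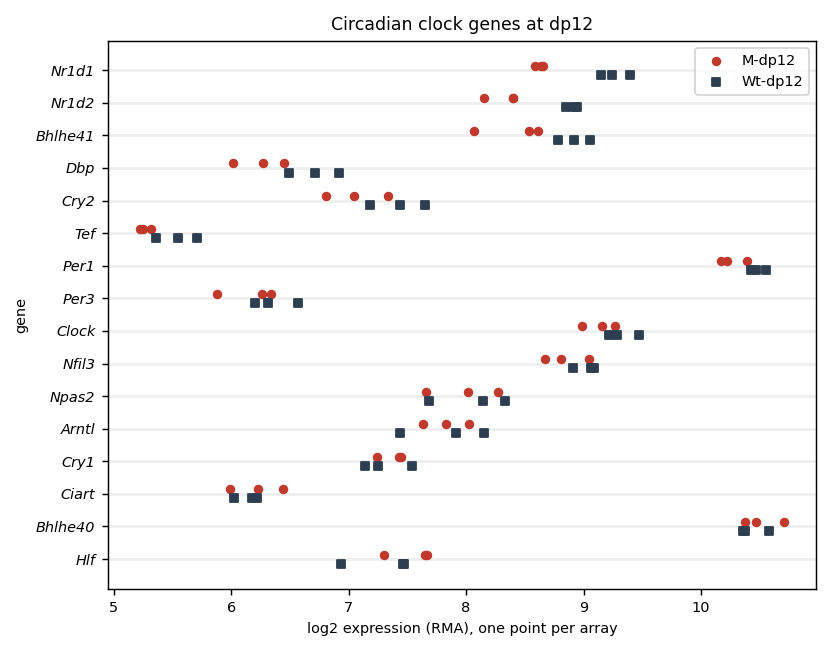
Log2 expression of the 16 circadian clock genes tested at dp12, with 1 point per array (red circles above for M-dp12, dark squares below for Wt-dp12), ordered by the difference. Nr1d1 and Nr1d2 show the widest separation (-0.64 and -0.59), and Hlf at the bottom is the gene most to the other side (0.25).

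Whether a difference was particular to dp12 was tested on all 24 arrays, as the genotype difference at dp12 minus its mean over V, dp18 and Lac10. No gene passed (0 of 15234, 0%; limma). At an unadjusted p of 0.05, 120 were higher at dp12 (0.788%) and 117 lower (0.768%). The median SE of the genotype difference was 0.30 with the spread shared over all 24 arrays and 0.12 over the 6 dp12 arrays alone. The median correlation of an array to all remaining arrays, of every stage and genotype, was 0.909 to 0.927 for those of dp12. It ran more widely for the other stages, from 0.700 to 0.934. When arrays were weighted by their estimated precision, weights ran from 2.26 to 3.39 at dp12 and from 0.095 to 5.97 at the other stages. With these weights 34 genes passed, without Slc25a34 and Osr1 of the genes described next. Among the 34 were Pi15, Cdo1, Gldc, Ulbp1, Apln and Dhrs9 (limma adjusted p = 0.0103, 0.0138, 0.0199, 0.0199, 0.0321 and 0.0357 with weights). Against V alone 1 gene passed, Cyp3a57. That gene was at 3.64, 3.87 and 3.87 in mutants and 3.79, 3.71 and 4.18 in wild types at dp12, and its genotype difference was -0.10 there and 2.11 at V.

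Apln had the smallest p of this contrast. Its genotype difference was 1.75 at dp12 (SE 0.45 over 24 arrays), and -0.37 at V, 0.36 at dp18 and -2.06 at Lac10, which gave 2.44 for dp12 over the others. Gldc followed the same order, with 1.17 at dp12, -0.31 at V, -0.02 at dp18 and -2.58 at Lac10 (2.13). In both, Lac10 lay on the other side of 0. Ulbp1 was higher at dp12 (1.20), with values of -0.15, 0.27 and -0.11 at V, dp18 and Lac10, and Slc25a34, a mitochondrial carrier gene, likewise (0.82, with 0.02, -0.05 and -0.23). Without the array labelled Wt-Lac10 replicate 1, the Lac10 difference of Ulbp1 was 0.18. The others of the 6 were Gm13546 and Stx19, a syntaxin gene, at 0.94 and 1.11 over the other stages.

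On the lower side, Cdo1 was at -1.03 at dp12, and 2.06 at V, -0.18 at dp18 and 1.84 at Lac10, a contrast of -2.27. Pi15, a peptidase inhibitor gene, was at 5.20, 4.90 and 5.05 in mutants and 6.31, 5.99 and 7.03 in wild types at dp12. Its difference of -1.40 there stood beside -0.25, -0.22 and 0.84 at V, dp18 and Lac10 (contrast -1.52). Dhrs9, Fam171b and Osr1, the last a transcription factor gene of mesenchyme, had contrasts of -1.61, -0.99 and -0.97. The gene a was higher in mutants at every stage, by 2.71 at V, 3.95 at dp12, 2.68 at dp18 and 1.46 at Lac10. Its contrast of 1.67 was 0.79 without the arrays labelled M-dp18 replicate 2 and Wt-Lac10 replicate 1.

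**Figure D5:**
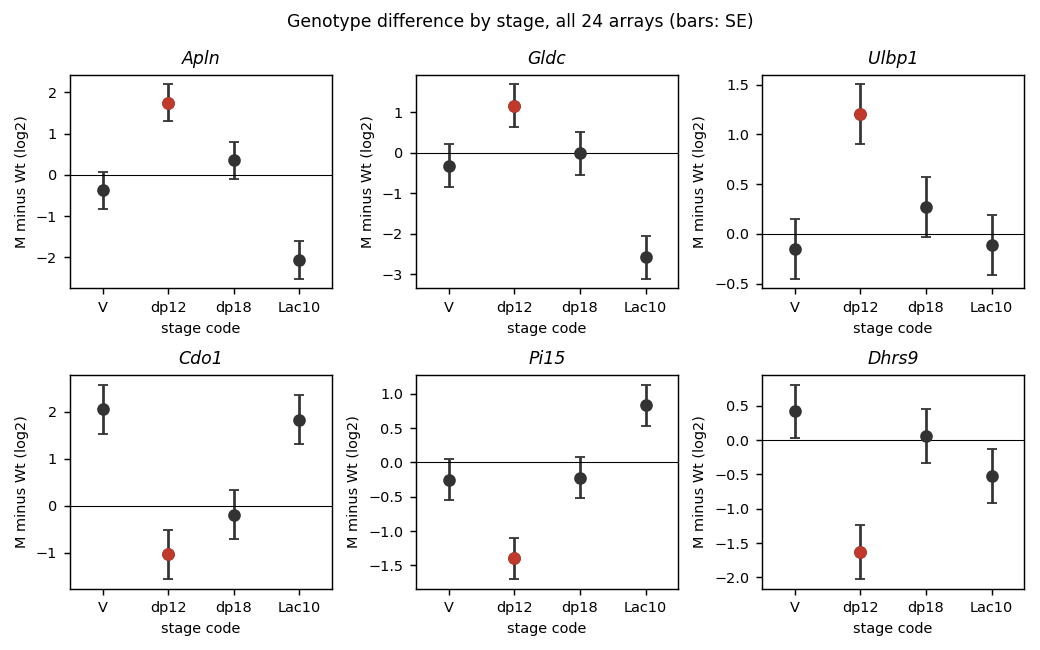
Genotype difference (M minus Wt, log2) at V, dp12, dp18 and Lac10 for 6 genes with small p in the contrast of dp12 against the other stages, with SE from the fit on 24 arrays (3 arrays per group); dp12 is in red. Apln, Gldc and Ulbp1 stand highest at dp12 and Cdo1, Pi15 and Dhrs9 lowest, and none of the contrasts passed the adjusted threshold without array weights, while all 6 did with them.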

How the data were processed

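RNA was measured on 24 arrays, and the 6 of M-dp12 and Wt-dp12 were compared. The authors deposited log2 values, made with RMA per the submitters' processing notes, which name no version. The genome build is not given in the sources used here. GEO's platform annotation pairs 23521 of the 41345 probe sets with a single symbol, 1814 with several and 16010 with none. Symbols were updated through gene IDs. Of 1082 genes with several probe sets the one of highest mean was used. A gene was kept where at least 3 of all 24 arrays exceeded the median of the same array, so 15234 genes were tested and 6946 were not.

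Genes were fitted with limma 3.58.1 in R 4.3.3 on the 6 arrays (4 residual and 4.70 prior degrees of freedom), with Benjamini-Hochberg adjustment at 0.05. The contrast of dp12 with the mean of the other stages used all 24 arrays. The steps were tested on simulated data. The members and lists were chosen with earlier results of these data known. The genes named are, per direction, the 15 of smallest p (fewer than 15 passed), the 6 largest differences without overlap above the mean array median, up to 4 of smallest p per list (here only those at an unadjusted p of 0.05), the 6 of smallest p against the other stages, and 6 fixed genes (Brca1, Cdkn1a, Esr1, Mcm2, Pgr, Wee1). Members of lists or of the clock promoters named beyond this rule were chosen after their values were seen. Alternatives covered the filter, probe sets, scaling, the variance model, array weights, body weight and each array left out.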

Additional observations from a re-analysis of the deposited data

Results flagged for a closer look

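Among the 147 named genes, 31 cases over 30 genes changed sides between dp12 and another stage. In each, every mutant array lay on one side of every wild-type array at dp12 and on the other side at that stage. Many of the 147 were named for their difference at dp12. The same count over all genes tested was not made, so the 31 cases have no share to be set beside. The values given are the genotype difference at dp12 minus that at the other stage, in log2 units. Each was also tested on all 24 arrays with limma, and none passed after adjustment (lowest adjusted p = 0.103, for Apln against Lac10).

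Against V there were 9 cases. Differences were lower at dp12 for Clic6 at -1.89, Orc3 at -0.87, Slc12a2 at -1.97 and Cdo1 at -3.09, and for the clock genes Nr1d1 at -1.23, Nr1d2 at -1.54 and Bhlhe41 at -1.33. They were higher at dp12 for Gm13546 at 1.28 and Atp5l at 1.53.

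Against dp18 there was 1 case, Aldh1l1 of folate metabolism at -1.03.

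Against Lac10 there were 21 cases, and these include the array labelled Wt-Lac10 replicate 1, whose level of the gene a went against its label. Of the replication and checkpoint genes, Cdc25a at 1.34, Chek2 at 1.73 and Rrm2 at 1.48 were higher at dp12, and of the immediate early genes Ier2 at 1.85, Fosb at 1.86 and Fos at 1.43. The metabolic genes Lss at 2.07, Cox6b1 at 1.04, Ndufs4 at 0.97 and Phgdh at 1.48 were higher at dp12, as were Apln at 3.81, Stc2 at 1.00, Actg2 at 1.35, Gusb at 1.40 and Tfrc at 2.67. Lower at dp12 were Olfml1 at -1.63, Flrt2 at -1.50, Tnfsf11 at -0.87, Cdo1 at -2.87, Fn1 at -1.65 and Dpt at -1.60.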

How the results depend on the processing

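The count of 6 genes at dp12 was 6 with no filter, with a filter on the mean of the 6 arrays, with probe sets averaged, with robust variance and with array weights, and 7 with a variance trend. It was 0 in limma with all 24 arrays in the fit (73 higher and 111 lower at an unadjusted p of 0.05), 2 with each probe set tested on its own, 11 with arrays centred on their median, 3 when centred on the housekeeping list, 2 after quantile normalization and 25 with body weight as a covariate. With each array left out it ran from 3 to 57. With quantile normalization the count at an unadjusted p of 0.05 was 712 higher and 1002 lower, and with housekeeping centring 651 higher and 531 lower, against 641 and 1125 as reported. For dp12 against the other stages the count was 0 under every alternative except 34 with array weights and 1 against V alone. Without the arrays labelled M-dp18 replicate 2 and Wt-Lac10 replicate 1, an alternative chosen after seeing the data, it stayed 0. The values at dp18 and Lac10 without these arrays were also added after seeing the data. Of 147 named genes 145 kept their sign in every setting. Cdkn1a did not, at 0.0012, 0.020 and 0.030 without M-dp12 replicate 2, M-dp12 replicate 3 and Wt-dp12 replicate 3 (its range with each array left out was -0.156 to 0.030), nor did Cyp3a57, at 0.043 without Wt-dp12 replicate 3 (range -0.193 to 0.043). Of 34 list medians 21 kept their sign in all 13 settings. The cause of these shifts was not tested. No paired analysis was possible because the titles of mutant arrays hold animal numbers that match no wild-type array, and their replicate numbers follow accession order, which pairs nothing.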

Other observations

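Some further gene groups stood out when the values were read through. They were put together after the values were seen, so counts describe the groups and no test is given for them. Of 16 cytotoxic lymphocyte genes all 16 were higher in mutants, with a median of 0.68. In 11 the groups did not overlap, as in 6.69% of all genes. Apart from Nkg7, the wild-type means of these 11 lay within or below the array medians of 5.31 to 5.34, such as Klrc1 at 4.23 and Gzma at 4.35. For Klrc1, Gzma, Eomes and Klrd1 the mutant means lay below these medians too, at 4.72, 5.04, 5.19 and 5.29. Nkg7, of killer cell granules, was at 8.20, 7.26 and 7.86 in mutants and 6.54, 7.23 and 6.96 in wild types, and Gzmk, a granzyme gene, at 5.98, 5.52 and 5.84 in mutants and 4.90, 5.30 and 4.94 in wild types. Of 20 genes of antigen presentation and of the interferon gamma response all 20 were higher, with a median of 0.58, and in 15 the groups did not overlap, as in 6.69% of all genes. Igtp, an interferon-inducible GTPase gene, was at 7.74, 8.39 and 8.65 in mutants and 6.62, 7.18 and 7.05 in wild types, and Tap1, a peptide transporter gene, at 9.46, 9.54 and 9.64 in mutants and 8.73, 8.97 and 9.03 in wild types. The medians of the cytotoxic and antigen presentation genes were 0.10 and 0.26 at V, 0.69 and 0.60 at dp18 and -0.06 and -0.27 at Lac10. Without the array labelled M-dp18 replicate 2 they were 0.62 and 0.37 at dp18, and without the array labelled Wt-Lac10 replicate 1 they turned to 0.45 and 0.28 at Lac10. No gene of either passed at dp12 (smallest limma adjusted p = 0.132 and 0.116).

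Of 28 fatty acid oxidation genes 24 were higher in mutants, with a median of 0.28, and in 16 the groups did not overlap with the mutants higher, as in 6.69% of all genes. Beside Ucp3 and Ech1 these included Acot2, a thioesterase gene, at 9.59, 9.50 and 9.50 in mutants and 9.07, 8.97 and 8.78 in wild types, and Pdk4, a kinase gene that shuts off pyruvate oxidation, at 11.31, 11.13 and 11.03 in mutants and 10.31, 10.23 and 10.79 in wild types. Cpt1a, the carnitine palmitoyltransferase gene, differed by -0.04. Of 10 genes linked to luminal progenitor cells 9 were lower, with a median of -0.42. Aldh1a3, a retinaldehyde dehydrogenase gene, was at 6.33, 6.01 and 6.30 in mutants and 7.65, 6.41 and 8.11 in wild types, Itgb3 was lower by -0.54, and Elf5 was higher by 0.30. Of 14 CXC chemokine genes 9 were lower, with Cxcl1 at 7.41, 7.08 and 7.10 in mutants and 7.77, 7.74 and 8.33 in wild types, and Cxcl9 and Cxcl10, which are induced by interferon gamma, were higher by 0.38 and 0.49.

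The 100 genes nearest to Brca1 in RefSeq order (GRCm38.p6) held 7 at an unadjusted p of 0.05 at dp12, 7%, where 11.6% of all genes were. Of 17824 probe sets without a single gene symbol 0 passed in limma, with 1386 at an unadjusted p of 0.05 (7.78%). Among all 41345 probe sets of the same fit, which had no filter on low values, 2 passed and 8.25% were at an unadjusted p of 0.05.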
